A study of Mus musculus with 201 samples.

Results

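The 9 genes described here encode enzymes that make haem (Alas1, Uros, Urod, Cpox, Ppox and Fech) or break it down (Hmox1, Hmox2 and Blvra). They were chosen by name, and every probe set whose annotation gives 1 of these symbols alone was taken: 19 probe sets of the 45037 analysed, with 2 each for Alas1, Uros and Urod, 3 each for Cpox and Ppox, 4 for Fech and 1 each for Hmox1, Hmox2 and Blvra. The study measured hippocampal RNA of mice from 100 strains on 201 Affymetrix M430 2.0 arrays, each hybridized with RNA pooled from 1 to 4 animals, usually of 1 sex. The strains fall into 39 later BXD lines (76 arrays), 29 earlier BXD lines (58 arrays), 13 CXB lines (27 arrays), 4 wild-derived inbred strains (CAST/EiJ, PWD/PhJ, PWK/PhJ and WSB/EiJ, 7 arrays), 13 classical inbred strains (27 arrays, DBA/2J and C57BL/6J among them) and the reciprocal hybrids B6D2F1 and D2B6F1 (6 arrays). The BXD lines are recombinant inbred lines from C57BL/6J and DBA/2J, the CXB lines from C57BL/6ByJ and BALB/cByJ, and the later BXD lines were bred independently of the earlier ones and in part were not yet fully inbred. The labels name no transgene and no treatment, and mean pool ages ran between 41 and 196 days, with a median of 62. Whole hippocampi were taken during the light phase, with varying amounts of subiculum and fimbria, a fibre tract, attached.

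Haem synthesis starts in the mitochondrion, where Alas1 makes the first precursor and sets the rate of the pathway outside red blood cells. Later steps, those of Alad, Uros and Urod among them, take place in the cytosol, and Cpox, Ppox and Fech complete the ring in the mitochondrion, where Fech inserts iron. Haem oxygenases open the ring and release iron, carbon monoxide and biliverdin, which Blvra reduces to bilirubin. Hmox1 is the inducible oxygenase, while Hmox2 is made constitutively and is the main form in neurons. Alad, the second enzyme, whose probe set of highest mean varied with strain in this series, was used as the point of comparison within the pathway, and Alad without a probe set number means that probe set.

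Sequence at the starts of the genes is shown as description, and no link to the expression values was tested. RefSeq promoter windows of build GRCm38.p6, each with 250 bases before and 50 bases after an annotated start, were found for 8 of the 10 genes looked up (Fech and Hmox1 had none here). These 13 windows were searched on both strands for an NRF1 half-site pair (GCGCA, any 1 base, then GCGC), an E-box (CACGTG) and a GATA motif (AGATAA). The NRF1 pair was in 3 of the 13 windows, against 4.6% of all 32851 promoters, the E-box in 4 windows, against 7.15%, and the GATA motif in 1 window, against 11.2%. Windows are not separate genes: those with the NRF1 pair were both Alas1 windows, which overlap and hold the same sites, and a Uros window. Those with the E-box were both Alad windows, a Uros window and the Urod window. One window is printed for each motif, those of Alas1, Urod and Cpox, together with that of Ppox, which held none, and capitals mark the matches; a match is a string of letters only. Alas1 lies at chr9:106247681-106247980 on the minus strand, Urod at chr4:116994364-116994663 on the minus strand, Cpox at chr16:58669958-58670257 on the plus strand and Ppox at chr1:171281137-171281436 on the minus strand.
Alas1: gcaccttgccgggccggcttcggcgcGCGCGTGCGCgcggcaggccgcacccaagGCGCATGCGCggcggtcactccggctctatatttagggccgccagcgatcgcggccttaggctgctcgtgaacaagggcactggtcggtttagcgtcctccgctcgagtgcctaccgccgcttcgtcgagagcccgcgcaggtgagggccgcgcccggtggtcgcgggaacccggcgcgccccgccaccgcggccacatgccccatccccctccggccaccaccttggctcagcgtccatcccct
Urod: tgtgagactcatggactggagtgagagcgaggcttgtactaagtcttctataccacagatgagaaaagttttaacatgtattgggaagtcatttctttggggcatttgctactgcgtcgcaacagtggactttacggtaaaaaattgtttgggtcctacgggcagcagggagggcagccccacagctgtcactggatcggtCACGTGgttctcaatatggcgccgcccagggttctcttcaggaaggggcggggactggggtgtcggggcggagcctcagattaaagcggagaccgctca
Cpox: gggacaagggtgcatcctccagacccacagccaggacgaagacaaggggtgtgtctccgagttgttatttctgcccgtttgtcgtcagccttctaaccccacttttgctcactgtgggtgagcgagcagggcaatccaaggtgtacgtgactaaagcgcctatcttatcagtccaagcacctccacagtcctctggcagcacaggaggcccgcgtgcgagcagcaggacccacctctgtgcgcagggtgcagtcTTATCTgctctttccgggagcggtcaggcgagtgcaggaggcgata
Ppox: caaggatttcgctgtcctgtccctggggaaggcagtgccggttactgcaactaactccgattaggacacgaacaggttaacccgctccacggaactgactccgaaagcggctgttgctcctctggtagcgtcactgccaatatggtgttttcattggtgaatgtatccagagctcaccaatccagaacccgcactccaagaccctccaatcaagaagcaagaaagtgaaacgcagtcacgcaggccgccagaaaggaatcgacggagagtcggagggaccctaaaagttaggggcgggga
The Alas1 window held 2 NRF1 half-site pairs, Urod 1 E-box and Cpox 1 GATA motif read on the opposite strand. No match in a window says only that these letters are not there.

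Values were deposited in PDNN units, a log-like scale of unstated base made by a model of probe binding, so contrasts stay on that scale and carry no fold change. The array means lay between 8.06 and 8.10 PDNN units and the SD within an array between 0.633 and 0.801. For 7 arrays the column header named another strain, sex or batch than the labels, which were followed. Hippocampal neuron markers were measured, from Nrgn, with 9.77 to 10.8 PDNN units over the arrays, to the tryptophan enzyme gene Tdo2, with 7.33 to 8.41 PDNN units. Since the arrays are pools that the labels do not tie to separate animals, p-values measure the spread between these RNA samples. In whole tissue, fewer cells of a type and less RNA per cell cannot be told apart.

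Each gene was followed with the probe set of highest mean, and strain values were adjusted for sex and batch. The first enzyme, Alas1 (1424126_at), averaged 8.93 ± 0.0704 PDNN units (SD, n = 100 strains), with BXD9 lowest at 8.70 and BALB/cJ highest at 9.11. Uros (1423482_at), which closes the tetrapyrrole ring, averaged 8.63 ± 0.0926 PDNN units and ran between 8.04 in CAST/EiJ and 8.78 in BXD2. Urod (1443849_x_at), which removes carboxyl groups from the ring, averaged 8.82 ± 0.111 PDNN units, with BXD14 lowest at 8.56 and CAST/EiJ highest at 9.07. CAST/EiJ was thus lowest for Uros and highest for Urod, while Alas1 had its extremes in other strains. Cpox (1422492_at), the coproporphyrinogen oxidase, averaged 8.90 ± 0.119 PDNN units, between 8.67 in DBA/2J and 9.28 in NOD/LtJ. Ppox (1416618_at), which oxidizes the ring to protoporphyrin, averaged 7.98 ± 0.0799 PDNN units, between 7.80 in BXD9 and 8.16 in CXB5. Fech (1418699_s_at), which adds iron, averaged 8.92 ± 0.0754 PDNN units, between 8.73 in CAST/EiJ and 9.26 in PWK/PhJ. Fech and Uros thus both had their lowest strain value in CAST/EiJ. Among the enzymes of breakdown, Hmox1 (1448239_at) averaged 7.86 ± 0.0563 PDNN units, between 7.69 in BXD2 and 7.99 in CXB4. Hmox2 (1416399_a_at) averaged 9.46 ± 0.0804 PDNN units, between 9.21 in PWK/PhJ and 9.68 in AKR/J. Blvra (1428580_at) averaged 8.47 ± 0.0813 PDNN units, between 8.22 in BALB/cByJ and 8.65 in AKR/J.

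Panel means set the wild-derived strains apart for Uros and Hmox2. Uros stood lowest in the wild-derived strains, at 8.32 ± 0.234 PDNN units (SD, n = 4), and then came the CXB lines at 8.62 ± 0.0588 (n = 13), the later BXD lines at 8.63 ± 0.0479 (n = 39), the hybrids at 8.65 ± 0.0251 (n = 2), the earlier BXD lines at 8.65 ± 0.0542 (n = 29) and the classical strains at 8.70 ± 0.0376 (n = 13). All neighbours in that order had overlapping strain values. Hmox2 had the same lowest panel, with 9.29 ± 0.0811 PDNN units in the wild-derived strains, while the other panel means lay between 9.42 in the CXB lines and 9.49 in the hybrids. Panel means of Alas1 lay between 8.89 in the earlier BXD lines and 8.97 in the hybrids, and those of Hmox1 between 7.81 in the hybrids and 7.90 in the CXB lines. The panel means of Blvra lay between 8.40 in the wild-derived strains and 8.50 in the later BXD lines, again with overlapping strain values.

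Of the 19 probe sets, 2 differed between BXD strains in limma's F-test over 68 strains and 133 arrays, read against 8.38% of all probe sets called in the same test. They were a further Alas1 probe set, 1455282_x_at, and the Ppox probe set 1416618_at. The share of variance between strains (the intraclass correlation) had a median of 0.0782 over the 19 probe sets and 0.0601 over all probe sets. For the called Alas1 probe set the strain values ran between 8.38 PDNN units in BXD99 and 8.77 in BXD34, with a median of 8.61, and its intraclass correlation was 0.532 (limma, adjusted p = 5.65e-05). Away from the ends the widest step between neighbouring strains was 0.0209 PDNN units, with 20 strains below it and 48 above. The residual SD between arrays of a strain was 0.0820. Some steps at the ends were wider, such as that between BXD45 at 8.390 and BXD22 at 8.419, but none reached the residual SD. For Ppox they ran between 7.80 PDNN units in BXD9 and 8.13 in BXD67, with a median of 8.00, and the intraclass correlation was 0.441 (limma, adjusted p = 0.00299). Across 64 strains the first and the second array of a strain correlated at r = 0.554 for this Alas1 probe set and at r = 0.450 for Ppox, against 0.930 for Alad. The other 17 probe sets gave r between -0.154 for Cpox 1440747_at and 0.309 for Fech 1418699_s_at, as the plot of strain effects shows.

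The call on Alas1 rests on 1 probe set and on the scale. Its other probe set, 1424126_at, had an intraclass correlation of 0.0782 (limma, adjusted p = 0.588), and the strain values of the pair correlated at r = -0.0585 over 68 strains. Affymetrix's suffix x marks probe sets with probes that can match other sequences, and both Alas1 1455282_x_at and Urod 1443849_x_at carry it. In RMA values of the same arrays, the authors' other scale, the intraclass correlation of 1455282_x_at was -0.128 (limma, adjusted p = 0.94), while MAS5 values kept the call. Ppox kept its call in RMA values and missed it in MAS5 values (limma, adjusted p = 0.196) and in RMA values without 4 columns that match other arrays (limma, adjusted p = 0.0601). Without BXD9, which has 1 array here and the lowest array SD of the BXD strains (0.669), both calls held, with intraclass correlations of 0.534 and 0.422.

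**Figure D1:**
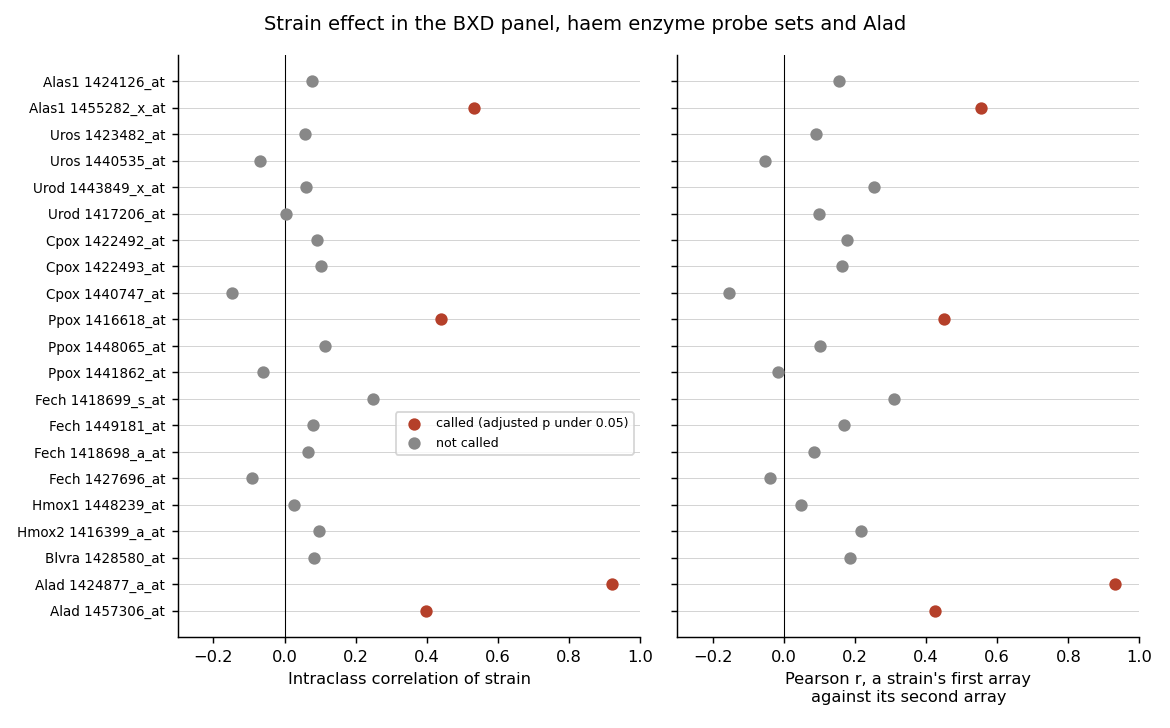
Strain effect on each haem enzyme probe set over the BXD strains: the share of variance between strains (intraclass correlation) and Pearson's r between the first and the second array of a strain, both without units, with the Alad probe sets for comparison. Alas1 1455282_x_at (0.532 and 0.554) and Ppox 1416618_at (0.441 and 0.450) stand above the other 17 haem enzyme probe sets and below the Alad probe set of highest mean (0.921 and 0.930).

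The genes whose strain values were most like those of the called probe sets lay mostly on the same chromosome. For Alas1 1455282_x_at, on chromosome 9, they were Dusp7, a phosphatase of MAP kinases (r = -0.880), Wdr82, a subunit of a histone methyltransferase complex (r = 0.847), and Abhd14a, a predicted hydrolase (r = 0.811), over 68 BXD strains. Between Alas1 and these genes RefSeq lists 1, 3 and 4 protein-coding genes. For Ppox, on chromosome 1, they were Dcaf8, a substrate adaptor of a ubiquitin ligase (r = 0.798), B4galt3, a galactosyltransferase (r = 0.795), and Itpka, a kinase of inositol trisphosphate on chromosome 2 (r = 0.751). B4galt3 is the next protein-coding gene, with 0 between, and 26 lie between Ppox and Dcaf8. Genes measured on 1 array share that array's deviations, so the pairs were also read with the enzyme from the first array of each strain and the other gene from the second, and the other way round. Over 64 strains this gave -0.693 and -0.681 for Dusp7, 0.679 and 0.715 for Wdr82, 0.619 and 0.624 for Abhd14a, 0.417 and 0.428 for Dcaf8, 0.452 and 0.592 for B4galt3 and 0.478 and 0.489 for Itpka.

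Strain values of the enzymes, read from the same arrays, were correlated across the BXD strains. No pair passed the same test with the 2 genes read from separate arrays of a strain (0 of 36 in either order, median r 0.0978 and 0.0618). That reading is limited, since single arrays repeated a gene's own level weakly. The r between first and second array lay between 0.0473 for Hmox1 and 0.450 for Ppox. A low r from separate arrays would therefore be found for shared strain levels and for shared array deviations alone, so it cannot tell them apart. Of these lead probe sets only that of Ppox was called between BXD strains. The others had intraclass correlations between 0.0259 for Hmox1 and 0.248 for Fech. Of 36 pairs of genes, 25 had a correlation of strain values that passed a permutation test (100000 resamples, two-sided, adjusted over the 45 pairs computed, which include Alad), 23 of them positive and 2 negative, and the median r of the 36 was 0.405. The closest pair was Urod and Hmox2, with r = 0.839 and rho = 0.859 over 68 strains (permutation p = 1e-05 for each, the smallest that these permutations can give; adjusted p = 5.00e-05), and r was 0.820 without the 2 strains farthest from the median. Urod and Cpox had r = 0.718 (rho = 0.693), and Urod and Blvra had r = 0.703 (rho = 0.659), each with that same smallest p. Alas1, Uros, Cpox, Fech and Blvra each correlated with Hmox2, between r = 0.613 for Uros and 0.663 for Alas1. Hmox1 had 2 correlations past the test, both negative, with Urod at r = -0.297 (rho = -0.159; permutation, adjusted p = 0.0226 for r and 0.250 for rho) and with Cpox at r = -0.329 (rho = -0.246; permutation, adjusted p = 0.0121 for r and 0.0638 for rho). Neither passed after quantile normalization (r = -0.0654 and -0.106) or in rescaled arrays (-0.170 and -0.196), and with Hmox1 from the first array and the partner from the second both turned positive (0.0785 and 0.184), while with the arrays exchanged they were -0.147 and -0.148. Ppox passed with Alas1 (r = 0.305, rho = 0.289; permutation, adjusted p = 0.0197) and with Fech (r = 0.298, rho = 0.275; permutation, adjusted p = 0.0223), and r was 0.195 and 0.206 without the 2 farthest strains. Within the 7 batches, of 12 to 30 BXD arrays each, the r of Urod and Hmox2 lay between 0.662 and 0.960 and was positive in all 7. Both genes were again read from the same arrays. Some passing pairs changed sign between batches, such as Alas1 and Ppox, with r between -0.108 and 0.530, positive in 5 of 7.

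These correlations moved with the spread of values on an array. Over the 68 BXD strains the array SD correlated with Hmox2 at r = 0.836, Urod 0.701, Cpox 0.695, Alas1 0.659, Fech 0.643, Uros 0.568 and Blvra 0.568, against 0.308 for Ppox and -0.285 for Hmox1. Over all probe sets with a mean of 8 PDNN units or more the median of this r was 0.324, and under 8 it was -0.366. In quantile-normalized values, which give all arrays 1 distribution, 10 of the 36 pairs passed, all of them positive, and Urod and Hmox2 had r = 0.717. In arrays rescaled to 1 mean and SD, 13 pairs passed. With 1 gene taken from the first array of each strain and the other from the second, 0 of 36 pairs passed in either order over 64 strains, and the highest r was 0.299. Urod and Hmox2 gave 0.224 and 0.199 in this reading. Between the same arrays Urod correlated with itself at only 0.253 and Hmox2 with itself at 0.216. The summed levels of myelin markers correlated with Hmox2, Urod, Cpox, Alas1 and Blvra at r between 0.423 and 0.586 over the 68 strains, and those of astrocyte markers at r between 0.318 and 0.619. Over the BXD strains the 6 myelin markers summed to between 58.6 and 62.0 PDNN units and the 5 astrocyte markers to between 48.1 and 49.4, and their part in the correlations was not tested. The heat maps of gene pairs show the values on all 3 bases.

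**Figure D2:**
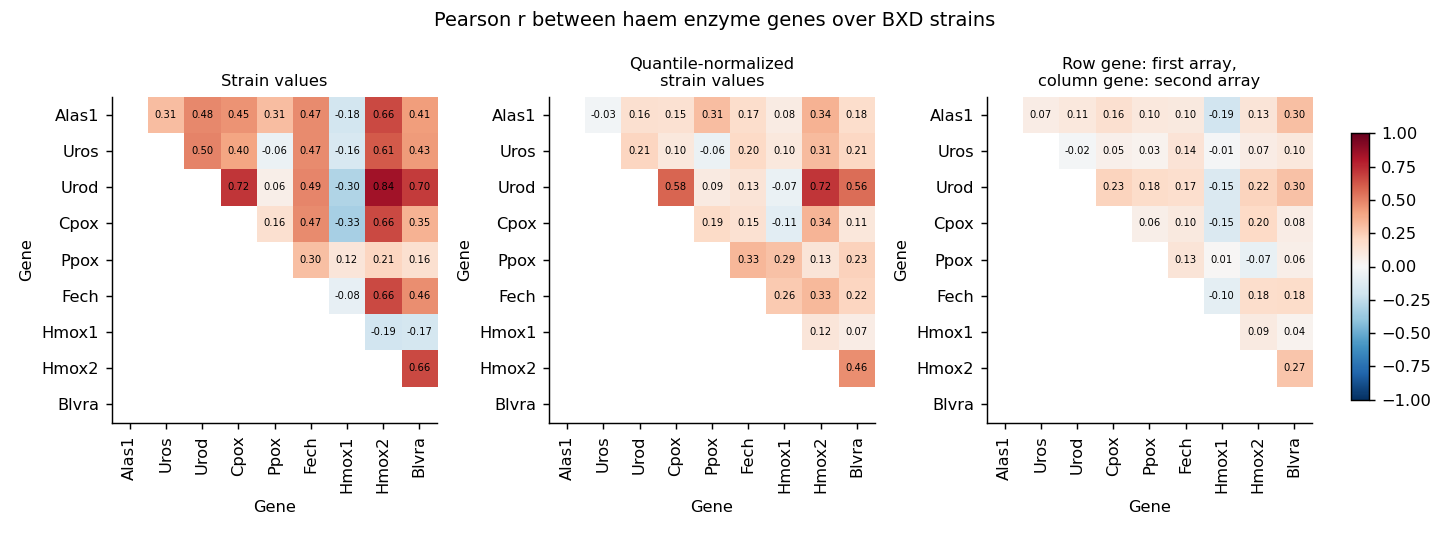
Pearson's r (no unit, colour scale) for each pair of the 9 haem enzyme genes over the BXD strains, from strain values, from quantile-normalized strain values, and with the row gene from the first and the column gene from the second array of a strain. Urod and Hmox2 have 0.839 from strain values and 0.717 after quantile normalization. With separate arrays no pair exceeds 0.299, but the same gene read from both arrays reaches only 0.253 for Urod and 0.216 for Hmox2.

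DBA/2J and C57BL/6J, the parents of the BXD lines, differed in 1 of the 19 probe sets, Hmox1, which was lower in DBA/2J. Of all probe sets, 7.24% were called in this comparison, 2.63% as lower and 4.61% as higher in DBA/2J. Hmox1 had 7.678 and 7.768 PDNN units on the 2 DBA/2J arrays, against 7.898, 7.917 and 8.020 PDNN units on the 3 C57BL/6J arrays. The groups did not overlap, and the adjusted difference was -0.211 ± 0.0667 PDNN units (SE; limma, adjusted p = 0.0326). The hybrids lay between the parents, at 7.83 PDNN units in B6D2F1 and 7.80 in D2B6F1, against 7.75 in DBA/2J and 7.96 in C57BL/6J after adjustment. In the batch that held both strains, the DBA/2J array read 7.768 and the C57BL/6J array 8.020. The call ended without the first DBA/2J array (adjusted p = 0.330), without the second (0.0640) and without the third C57BL/6J array (0.217), all in limma, and both DBA/2J pools were female while 2 of the 3 C57BL/6J pools were male. Over BXD strains Hmox1 had an intraclass correlation of 0.0259 (limma, adjusted p = 0.695).

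No other enzyme passed between these strains. Of the 19 probe sets, 4 had an unadjusted p under 0.05, against 17.3% of all probe sets, and these 4 were lower in DBA/2J, as were 8.26% of all probe sets at that level. Alas1 1455282_x_at read 8.441 and 8.437 PDNN units in DBA/2J, against 8.632, 8.784 and 8.589 in C57BL/6J. Its arrays did not overlap, and the difference was -0.201 ± 0.0770 PDNN units (SE; limma, adjusted p = 0.107). Ppox 1416618_at read 8.083 and 7.814 PDNN units in DBA/2J, against 7.973, 8.031 and 8.156 in C57BL/6J, which overlapped (difference -0.170 ± 0.0712, SE; limma, adjusted p = 0.162). The fourth was Fech 1418699_s_at, with a difference of -0.127 ± 0.0617 PDNN units (SE; limma, adjusted p = 0.261). The median difference of the 19 probe sets was -0.0922 PDNN units, and over all probe sets it was -0.0167. Alad differed the other way, by 0.534 ± 0.101 PDNN units with DBA/2J higher (SE; limma, adjusted p = 8.53e-05). Of 6 myelin markers 5 were called as lower in DBA/2J, with sums of 57.4 to 58.1 PDNN units on DBA/2J arrays, against 59.9 to 63.0 on C57BL/6J arrays, and 4 of 7 hippocampal neuron markers were called as lower too, with sums of 62.1 to 62.8, against 63.4 to 65.3. Their part in the Hmox1 difference was not tested.

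**Figure D3:**
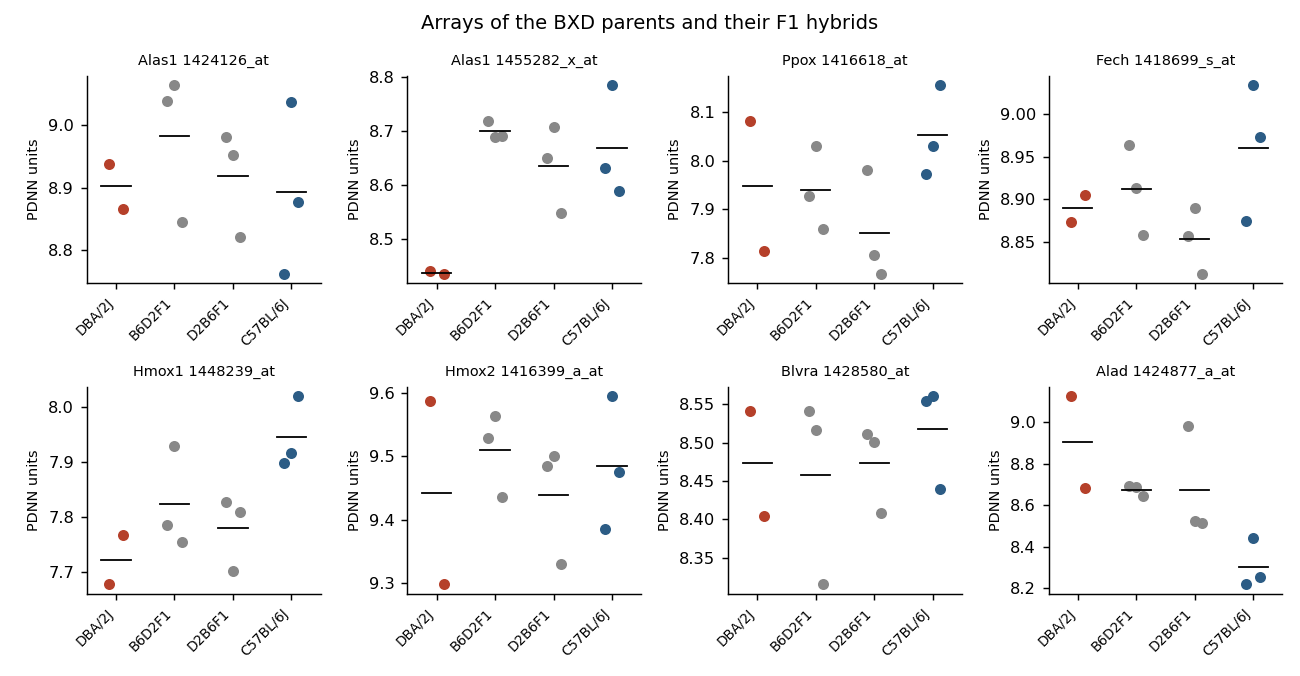
PDNN values (vertical axes, PDNN units) on each array of DBA/2J, of the hybrids B6D2F1 and D2B6F1 and of C57BL/6J, for 7 haem enzyme probe sets and Alad, with bars at the means. Both DBA/2J arrays lie below all 3 C57BL/6J arrays for Hmox1 (7.678 and 7.768, against 7.898, 7.917 and 8.020) and for Alas1 1455282_x_at (8.441 and 8.437, against 8.632, 8.784 and 8.589).

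Among the CXB lines, 0 of the 19 probe sets passed (limma, 13 strains, 27 arrays), against 1.09% of all probe sets, and 2 of the 19 had an unadjusted p under 0.05, against 7.98%. Blvra came closest, with strain values between 8.30 PDNN units in CXB11 and 8.60 in CXB7, a median of 8.45 and an intraclass correlation of 0.816 (limma, adjusted p = 0.0545). It was called in quantile-normalized values (limma, adjusted p = 0.0269). In C57BL/6ByJ and BALB/cByJ, the parents of these lines, the adjusted Blvra values were 8.53 and 8.22 PDNN units, and CXB7 lay above both. In the BXD strains Blvra had an intraclass correlation of 0.0827 (limma, adjusted p = 0.606), and the difference between the panels was not tested.

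Across the 17 inbred strains (34 arrays), 4 of the 19 probe sets differed between strains, against 10.7% of all probe sets. They belonged to Uros (1423482_at, limma, adjusted p = 2.62e-04), Cpox (1422493_at, adjusted p = 0.0184) and Fech (1418698_a_at, adjusted p = 0.0137, and 1418699_s_at, adjusted p = 0.0269). PWK/PhJ had the highest value of both Fech probe sets, 9.26 PDNN units for 1418699_s_at and 9.10 for 1418698_a_at, and CAST/EiJ the lowest, 8.73 and 8.38. The classical strains lay between 8.83 and 9.06 PDNN units for the one and between 8.52 and 9.01 for the other. In these 2 probe sets the 2 wild-derived strains thus stood on either side of all classical strains. The other 2 Fech probe sets did not follow and were not called (limma, adjusted p = 0.248 for 1449181_at and 0.231 for 1427696_at). For 1449181_at CAST/EiJ (8.83) and PWK/PhJ (9.04) lay within the classical range of 8.58 to 9.09. For 1427696_at CAST/EiJ was highest at 7.68, and PWK/PhJ, at 7.48, lay within the classical range of 7.40 to 7.55. By the labels' quality values, the 1 CAST/EiJ array had an RMA outlier share of 0.14, and the second PWK/PhJ array had 0.15 and the highest Actb 3'/5' ratio of the series, 4.65. The first PWK/PhJ array, with an outlier share of 0.09, read 9.24 PDNN units for 1418699_s_at and 9.17 for 1418698_a_at, and the second read 9.32 and 9.12, so both were high. Wild-derived and classical strains as groups did not differ in either (-0.00867 ± 0.0667 PDNN units for 1418699_s_at and -0.0154 ± 0.0987 for 1418698_a_at, SE; limma, adjusted p = 0.951 and 0.941). The 4 calls fell to 0 in MAS5 values and without the 11 of 34 arrays with an outlier share of 0.1 or more, which leaves 2 strains with no array, and rose to 7 in quantile-normalized values.

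Between the 4 wild-derived and the 13 classical strains, 2 of the 19 probe sets were called, both lower in the wild-derived strains, against 3.9% of all probe sets, 1.99% called as lower and 1.92% as higher in the wild-derived strains. Uros 1423482_at had 8.04 PDNN units in CAST/EiJ, 8.25 in PWD/PhJ, 8.42 in PWK/PhJ and 8.58 in WSB/EiJ, against 8.62 to 8.77 in the classical strains, with a median of 8.71. The groups did not overlap, and the difference was -0.378 ± 0.0598 PDNN units (SE; limma, adjusted p = 0.00341). WSB/EiJ lay closest to the lowest classical strain, C57BL/6J. CAST/EiJ lay farthest, with 1 array in the fit and an RMA outlier share of 0.14 on that array. The call on this Uros probe set was lost in 1 of 10 alternative settings, on another of the authors' scales. It held without any single wild-derived strain (limma, adjusted p up to 0.0284). Whether the probes bind RNA of all strains equally was not tested, for Uros or for the other probe sets. The other Uros probe set, 1440535_at, did not follow, with 7.63 PDNN units on average in the wild-derived and 7.57 in the classical strains (difference 0.0573 ± 0.0236, SE; limma, adjusted p = 0.135). Cpox 1422493_at had 7.74 PDNN units in CAST/EiJ, 7.70 in PWD/PhJ, 7.90 in PWK/PhJ and 7.94 in WSB/EiJ, against 7.84 to 8.31 in the classical strains, with a median of 8.14. The groups overlapped through DBA/2J, the lowest classical strain, and the difference was -0.311 ± 0.0639 PDNN units (SE; limma, adjusted p = 0.0147). The call on this Cpox probe set ended without CAST/EiJ (limma, adjusted p = 0.0565) or PWD/PhJ (0.0916) and without the arrays with an outlier share of 0.1 or more (0.0706), and its companion 1422492_at differed by -0.197 ± 0.0934 PDNN units (SE; limma, adjusted p = 0.185).

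Hmox2 averaged 9.29 PDNN units in the wild-derived and 9.48 in the classical strains, a difference of -0.193 ± 0.0604 (SE; limma, adjusted p = 0.0728). The strain values overlapped, with 9.21 to 9.39 PDNN units in the wild-derived strains, against 9.29 to 9.68 in the classical strains. Alad was lower in the wild-derived strains as well, by -0.494 ± 0.127 PDNN units (SE; limma, adjusted p = 0.0403). The median difference over the 19 probe sets was -0.00411 PDNN units, and over all probe sets it was 0.0210. Astrocyte marker sums were 47.1 to 47.5 PDNN units in the wild-derived and 48.0 to 49.5 in the classical strains, the mean array SD was 0.712 and 0.740, and their part in these differences was not tested.

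**Figure D4:**
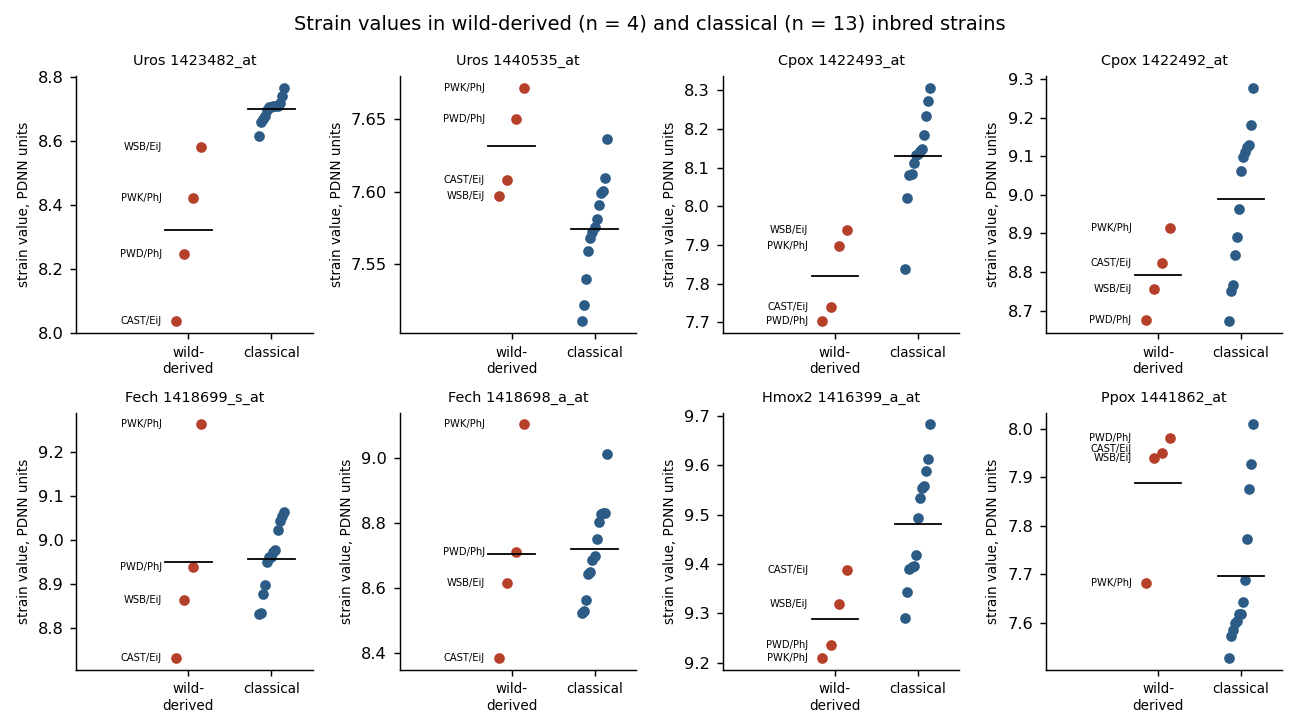
Strain values (vertical axes, PDNN units, adjusted for sex and batch) of 8 haem enzyme probe sets in the 4 wild-derived strains, named beside their points, and in the 13 classical strains. For Uros 1423482_at all 4 wild-derived strains (8.04 to 8.58) lie below the classical strains (8.62 to 8.77). For Fech 1418699_s_at and 1418698_a_at PWK/PhJ and CAST/EiJ lie at opposite ends.

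The relation of each enzyme to Alad was taken over the 68 BXD strains. The Alad strain values formed 2 separate clusters, 35 strains between 8.75 and 9.07 PDNN units and 33 strains between 8.09 and 8.41, with a gap of 0.347 against a residual SD of 0.109, so no correlation over all strains is given. In limma's test of the slope, 0 of the 19 probe sets passed, against 0.335% of all probe sets, and 3 of the 19 had an unadjusted p under 0.05, against 16.5% of all probe sets, a share near the background. Alas1 1424126_at had a slope of 0.0679 ± 0.0222 PDNN units per PDNN unit of Alad (SE; limma, adjusted p = 0.144). The slope was 0.0581 ± 0.0189 for Blvra (SE; limma, adjusted p = 0.142) and 0.0883 ± 0.0334 for Fech 1449181_at (SE; limma, adjusted p = 0.197). For scale, the other Alad probe set, 1457306_at, had a slope of 0.180 ± 0.0262 (limma, adjusted p = 5.25e-06). The clusters and the breeding sets overlap in part, since 30 of the 39 later lines and 5 of the 29 earlier lines were in the upper cluster. With the set as a covariate the slope was 0.0303 ± 0.0279 for Alas1 (limma, adjusted p = 0.684) and 0.0372 ± 0.0242 for Blvra (limma, adjusted p = 0.595), both smaller than without it, whereas it was larger for Fech 1449181_at, at 0.121 ± 0.0430 (limma, adjusted p = 0.552). In simulated data on 45036 probe sets, 66% of slopes of 0.1 were called.

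Within the clusters, 18 correlations of the 9 lead probe sets with Alad were computed. In the upper cluster (35 strains) 1 of 9 passed, Blvra, with r = 0.506 and rho = 0.513 (permutation, adjusted p = 0.00609) and r = 0.573 without the 2 farthest strains. With Alad from the first array of a strain and Blvra from the second, r was 0.237 over 34 strains of this cluster, and with the arrays exchanged it was -0.0114. In the lower cluster (33 strains) 7 of 9 passed. There Urod had r = 0.768 (rho = 0.726), Blvra 0.768 (rho = 0.709) and Hmox2 0.736 (rho = 0.677), each with the smallest p that the permutations can give, 1e-05 (adjusted p = 6.00e-05), and r was 0.733, 0.754 and 0.655 without the 2 farthest strains. Alas1 (r = 0.643), Fech (0.614), Cpox (0.511) and Ppox (0.489) also passed there, with r of 0.531, 0.519, 0.348 and 0.312 in the same order without the 2 farthest strains, while Uros (0.229) and Hmox1 (-0.366) did not. Whether the clusters differ was not tested. The array SD correlated with Alad at r = 0.436 within the upper and 0.730 within the lower cluster. After quantile normalization 0 of 9 passed in the upper and 5 of 9 in the lower cluster. With Alad from the first array of a strain and the enzyme from the second, r in the lower cluster (30 strains) was 0.505 for Blvra, 0.433 for Urod and 0.269 for Hmox2, and with the arrays exchanged it was 0.0330, 0.320 and 0.280. The plot against Alad shows the clusters for 4 probe sets.

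**Figure D5:**
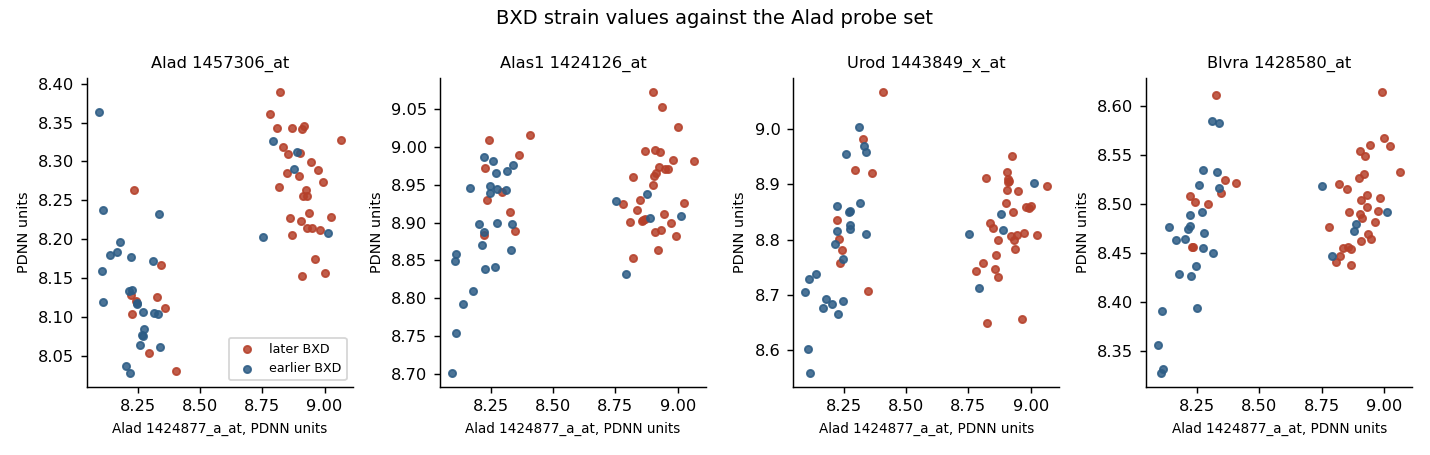
Strain values of Alad 1457306_at, Alas1 1424126_at, Urod 1443849_x_at and Blvra 1428580_at (vertical axes, PDNN units) against Alad (horizontal axes, PDNN units) over the 68 BXD strains, coloured by later and earlier lines. The Alad axis splits at a gap of 0.347 PDNN units, with 30 later and 5 earlier lines above it, and 9 later and 24 earlier lines below it.

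The slope on Alad in later minus earlier BXD lines differed for 0 of the 19 probe sets and for 0% of all probe sets in limma, with 1 of the 19, Fech 1427696_at (0.0792 ± 0.0341, SE; limma, adjusted p = 0.870), at an unadjusted p under 0.05, against 3.83%. Male and female pools differed in 0 of the 19 probe sets (limma), against 0.118% of all probe sets, and 1 of the 19 had an unadjusted p under 0.05, against 4.15%: Fech 1449181_at, with a male minus female difference of 0.0413 ± 0.0201 PDNN units (SE; limma, adjusted p = 0.9997). The slope on age per 10 days was called for 0 of the 19 (limma), against 0.00222% of all probe sets, and 0 of the 19 had an unadjusted p under 0.05, against 2.55%.

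Other genes of the pathway were read from lists by role, with 1 probe set a gene. Of the remaining haem synthesis genes, 2 of 3 measured differed between BXD strains: Alad, with an intraclass correlation of 0.921, and Alas2, the enzyme form of red blood cell precursors, with 0.392 (limma, adjusted p = 0.00521). Of 10 genes of haem transport, 2 passed: Flvcr1, a membrane transporter linked to haem export (0.584; limma, adjusted p = 4.06e-06), and Tspo, an outer mitochondrial membrane protein (0.340; limma, adjusted p = 0.0237). Of 8 regulators, 2 passed: Eif2ak1, a kinase that haem inhibits (0.548; limma, adjusted p = 4.74e-05), and Nfe2l2, a transcription factor of the oxidative stress response that drives Hmox1 (0.422; limma, adjusted p = 0.00415). Of 8 measured iron genes, 2 passed: Tfrc, the transferrin receptor (0.343; limma, adjusted p = 0.0225), and Slc40a1, the iron exporter ferroportin (0.386; limma, adjusted p = 0.00989). Each list thus had 2 genes called, in a test that called 8.38% of all probe sets. Alad, counted in its list, was the point of comparison, so its call is no separate result. The listed genes were read from their probe set of highest mean, so the share over all probe sets is not a like background.

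Between the parents of the BXD lines, 2 of 8 regulators were called, against 7.24% of all probe sets. Ppargc1a, a coactivator that raises Alas1 in mouse liver, differed by 0.884 ± 0.263 PDNN units with DBA/2J higher (SE; limma, adjusted p = 0.0211), and Eif2ak1 was lower in DBA/2J, with a difference of -0.253 ± 0.0676 (SE; limma, adjusted p = 0.00789). None of 10 transport genes and 8 iron genes was called there (0 and 0). Ppargc1a was not called over BXD strains (intraclass correlation 0.0303, limma, adjusted p = 0.631) or over inbred strains (-0.105, limma, adjusted p = 0.631). Across the inbred strains, 3 of 10 transport genes passed, against 10.7% of all probe sets: Abcb10, a mitochondrial transporter (intraclass correlation 0.845), Slc25a38, which carries glycine into mitochondria (0.797), and Tmem14c, a mitochondrial porphyrin carrier (0.765); of the iron genes, Slc11a2, an iron importer, passed (0.710). Abcb10 was also called among the CXB lines, where 1.09% of all probe sets were (0.810; limma, adjusted p = 0.0250). On the slope against Alad, 1 of 8 regulators passed, against 0.335% of all probe sets. It was Nr1d2, a nuclear receptor that binds haem, with 0.170 ± 0.0383 PDNN units per unit of Alad (SE, limma, adjusted p = 0.0191). Between BXD strains Nr1d2 itself was not called (intraclass correlation 0.146, limma, adjusted p = 0.379). No slope with the BXD set as a covariate and no value from separate arrays is given for it.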

How the data were processed

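Hippocampal RNA was hybridized to 201 Affymetrix M430 2.0 arrays, and the authors deposited PDNN values, which are scores on a log-like scale of unstated base. Per the series' design text each array was adjusted to average 8 with an SD of 2, while the deposited columns have an SD of 0.633 to 0.801 per array. The number of arrays per strain, mostly 2, limits the precision.

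Of 45101 probe sets 64 controls were left out. The technical duplicate was averaged with its partner and the mixed-sex array was dropped, which left 199 columns, and sex and batch (7 batches of 25 to 32 arrays) were terms in every fit of arrays. Strain values came from 1 fit of all columns with 92 residual degrees of freedom. Tests were run with limma 3.58.1 in R 4.3.3 over all probe sets, adjusted by Benjamini and Hochberg over all of them, with a threshold of 0.05 on the adjusted p. Correlations over strains used permutation tests (100000 resamples) in scipy 1.17.1, and figures matplotlib 3.10.9. The tests over BXD strains, between DBA/2J and C57BL/6J, between wild-derived and classical strains and on Alad were tested on simulated data, the others were not: of strain effects with an SD equal to the residual SD, 71% were recovered over BXD strains, and of differences of 0.3 PDNN units 54.5% between DBA/2J and C57BL/6J and 95.5% between wild-derived and classical strains, each on 45037 probe sets.

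The 9 genes and all lists were chosen with earlier results of these data known. Each gene is described by its probe set of highest mean and by any other called among BXD strains, between DBA/2J and C57BL/6J or on Alad. For a probe set called among BXD strains, the 3 named genes with the highest absolute r are given. Alternatives were MAS5 and RMA values that the authors deposited for these arrays, quantile normalization, rescaled arrays, no batch term, a minimum mean of 8 PDNN units, and fits without outlier arrays, older pools, arrays whose headers disagree with the labels, or single arrays or strains. RMA values cover 197 arrays, and 4 columns match another array better than their own. Of these, 3 headed C57BL/6J match BALB/cJ, so the DBA/2J contrast is not read from RMA values.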

Additional observations from a re-analysis of the deposited data

Results flagged for a closer look

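Ppox 1441862_at had 7.68 PDNN units in PWK/PhJ, against 7.94 to 7.98 in the other 3 wild-derived strains, so that the gap was wider than the limit for a group of 4. Such a limit marks about 1 in 20 groups by chance, and 19 probe sets were looked at. This probe set had an intraclass correlation of -0.0619 over the BXD strains and correlated with the array SD there at r = -0.724. The cause was not tested.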

How the results depend on the processing

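The counts of called probe sets among the 19 moved with the scale. Over BXD strains, 2 became 1 in MAS5 values, 1 in RMA values, 0 in RMA values without mismatched columns and 1 with a minimum mean of 8. Over CXB strains, 0 became 1 after quantile normalization. Over inbred strains, 4 became 0 in MAS5 values, 2 in RMA values with or without the mismatched columns, 7 after quantile normalization, 2 without a batch term, 0 without outlier arrays and 2 without arrays whose headers disagree. Between DBA/2J and C57BL/6J, 1 became 0 with a minimum mean of 8, which leaves Hmox1 out, 3 after quantile normalization and 0 without a batch term. Between wild-derived and classical strains, 2 became 1 in MAS5 values, in RMA values without mismatched columns and without outlier arrays. The counts on Alad, on Alad by BXD set, on sex and on age were 0 in every alternative run. Of 36 gene pairs, 25 passing became 10 after quantile normalization, 13 in rescaled arrays and 0 with separate arrays in either order. Leaving out single arrays or strains (20 drawn where there were more) gave 2 to 2 calls over BXD strains, 0 to 1 over CXB strains (1 without the third CXB5 array), 2 to 6 over inbred strains (2 without the first PWK/PhJ or the second PWD/PhJ array, 6 without the second AKR/J array), 0 to 1 between DBA/2J and C57BL/6J (the arrays are named above), 1 to 2 between wild-derived and classical strains, and 0 to 0 on Alad, on Alad by BXD set, on sex and on age. Signs turned for 9 pairs: Alas1 and Uros to -0.0305 after quantile normalization, Uros and Urod to -0.0223 with the first gene on the first array, and, with the first gene on the second array, Alas1 and Ppox to -0.0151, Alas1 and Fech to -9.17e-04, Alas1 and Blvra to -0.110, Uros and Blvra to -0.00907, Hmox2 and Blvra to -0.0360, Urod and Hmox1 to 0.0785 and Cpox and Hmox1 to 0.184. The causes were not tested. Of 143 settings over 12 results on single probe sets, 115 kept the call or its absence, and the sign turned in 1 result, the intraclass correlation of Alas1 1455282_x_at, which was -0.128 in RMA values and -0.120 without the mismatched columns. No paired analysis was possible because replicate numbers only name arrays in accession order. Of the 19 probe sets, 7 have a mean under 8 PDNN units, and no signal over background was used here.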
